A study of Homo sapiens with 6 samples.

Results

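Cytochrome P450 (CYP) genes were examined in xenograft tumors of mice given deferasirox (DFX), an oral iron chelator, and in tumors of control mice. The members were all genes whose symbol on the array has the form CYP, family number, subfamily letter and gene number. There were 54 such genes among 34423 named genes, measured by 76 probes on 112 spots. The rule reads symbols alone.

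The tumors were grown subcutaneously in female BALB/c nu/nu mice, aged 8 to 10 weeks at the start, from the human pancreatic adenocarcinoma line BxPC-3. The DFX group (3 tumors) came from mice that received 200 mg/kg DFX in saline by gavage every second day, 3 times per week, for 21 days. The control group (3 tumors) came from mice that received the vehicle alone on that schedule. Total RNA of each tumor was hybridized to 1 one-color human 60-mer array. Nude mice lack T cells but keep other host cells, and host RNA in the tumors could also bind human probes.

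P450 enzymes hold a heme whose iron, bound to a cysteine of the protein, activates oxygen for the oxidation of drugs, fatty acids, sterols, retinoids and vitamin D. Microsomal members receive electrons from the reductase POR, and mitochondrial members receive them from ferredoxin. Many CYP genes are transcribed under nuclear receptors and other ligand sensors, among them the pregnane X receptor NR1I2 and the aryl hydrocarbon receptor AHR, and the liver and intestine are the tissues best known for drug-metabolizing members.

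All 6 arrays lay on 1 slide, with the control tumors in row 1 and the DFX tumors in row 2, so a row effect and the treatment cannot be told apart. The scanner software flagged 50.3% to 56.5% of probes per array as well above background. The 8 ductal epithelial markers were well above background on all arrays. Of them, EPCAM, KRT18 and KRT8 each had a probe that was higher in the DFX tumors at an unadjusted p under 0.05, beside 4.45% of all tested genes. The other probes of KRT18 (log2 difference 0.15) and KRT8 (0.24 and -0.12) did not pass. No probe of the whole array passed an adjusted p of 0.05 with limma, and the lowest adjusted p was 0.0675. Calls below are therefore unadjusted limma p-values under 0.05 (two-sided), and in bulk tumors fewer cells of a type and less RNA per cell cannot be told apart.

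Of the 54 CYP genes, 32 had such a flag for a probe on all 6 arrays, 7 on 1 to 5 arrays and 15 on none. The background p-value filter of the study's methods kept 53 probes of 40 genes. The 14 genes that did not pass it were CYP1A1, CYP2A7, CYP2C19, CYP2E1, CYP3A43, CYP4A22, CYP7A1, CYP7B1, CYP8B1, CYP46A1, CYP11B1, CYP11B2, CYP19A1 and CYP26C1. This group holds the bile acid enzymes CYP7A1 and CYP8B1, the adrenal enzymes CYP11B1 and CYP11B2, and the aromatase CYP19A1, none of which was well above background on any array. The filter is two-sided, and CYP2C8 and CYP39A1 passed it without being well above background on any array.

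CYP2C18 and CYP4Z1 were higher and CYP2S1 was lower in the DFX tumors. These 3 genes were 7.5% of the 40 tested, where 10.8% of all 22718 tested genes had a probe past the same threshold. No CYP gene passed after Benjamini-Hochberg adjustment (lowest adjusted p = 0.526 with limma). The Kruskal-Wallis H test called 4 genes, 10% of the CYP genes beside 19.4% of all genes. With 3 tumors per group it passes only where the groups do not overlap, so it repeats the count of genes without overlap given below. By the brightest probe alone limma called 2 genes, beside 7.98% of all genes. The background was 4.45% of genes for higher calls and 6.4% for lower calls. The median log2 difference of the 40 genes, DFX minus control by the brightest tested probe, was 0.041, beside -0.012 for all tested genes. It was positive for 23 genes and negative for 17, 25 genes lay within 0.25 of 0, and 38 differed by less than 2-fold. The median standard error of these differences was 0.28 (limma), a size that most of them did not exceed. The share of called CYP genes relative to all genes turned with single tumors. Without control replicate 1 it was 9 genes, 22.5% beside 10.9% of all genes. Without control replicate 3 it was 1 gene, CYP2C18, 2.5% beside 10.2%, and without DFX replicate 1 it was that gene again, beside 7.75%. With normexp background correction it was 6 genes, 15% beside 11%.

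**Figure D1:**
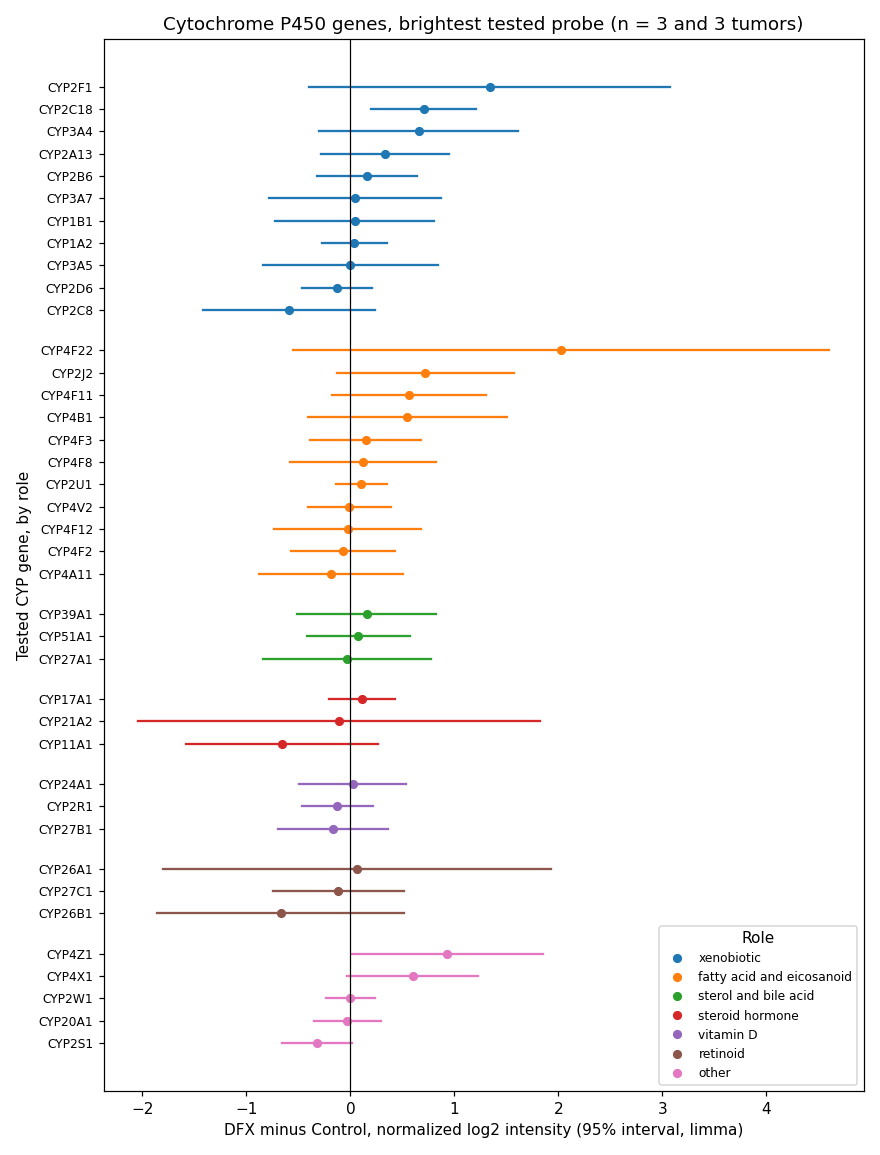
The horizontal axis gives the difference DFX minus control in normalized log2 intensity for the brightest tested probe of each of 39 tested CYP genes, grouped by role on the vertical axis; points are differences and lines are 95% intervals from limma. Only the intervals of CYP2C18 and CYP4Z1 lie wholly above 0.

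Among the 17 xenobiotic-metabolizing genes, 12 were tested and CYP2C18 alone was called; the median difference was 0.10. CYP2C18 belongs to the CYP2C subfamily of drug oxidases. The normalized log2 intensity of CYP2C18 was 7.80, 7.05 and 7.21 in controls and 8.08, 8.0 and 8.09 in the DFX tumors. All 3 DFX tumors lay above all 3 control tumors and close to each other, whereas control replicate 1 stood nearest to them. The difference was 0.70 ± 0.21 (SE, adjusted p = 0.526, limma). It passed the unadjusted threshold under all 18 alternatives of the processing, at 0.54 to 0.93. Of these, the Kruskal-Wallis H test passes any probe without overlap. The CYP2C18 probe shares a run of 20 bases with 1 other probe of the array, and the part of that run in its value was not tested. CYP2C8, of the same subfamily, was not well above background on any array.

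CYP2F1, an enzyme known from the lung that activates naphthalene, had 9.59, 8.01 and 6.68 in controls and 9.41, 9.08 and 9.81 in the DFX tumors. The control tumors spanned a far wider range than the DFX tumors and overlapped them. The difference was 1.34 ± 0.71 (SE, adjusted p = 0.654, limma) and did not pass the unadjusted threshold. It was 2.09 and passed without control replicate 1, and 0.63 and did not pass without control replicate 3.

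The drug oxidases CYP3A5 and CYP3A7 did not pass the test. CYP3A5 had 12.11, 11.46 and 10.79 in controls and 11.52, 11.17 and 11.66 in the DFX tumors, with the DFX values inside the control range and a 95% interval of the difference from -0.84 to 0.84. The brightest CYP3A7 probe followed the CYP3A5 probe within 0.014 to 0.18 on every array. This CYP3A7 probe had 12.10, 11.52 and 10.83 in controls and 11.42, 11.32 and 11.84 with DFX. The longest run shared with the CYP3A5 probe was 7 bases, which does not exclude a shared signal. The other CYP3A7 probe, nearby on the same strand, was far dimmer on every array. The part of CYP3A5 RNA in the brightest CYP3A7 probe was not tested. Its value is therefore not given as a level of the CYP3A7 transcript. Neither gene separated the groups. CYP3A4, the main hepatic drug oxidase and a target of NR1I2, was well above background in 1 DFX tumor and in no control tumor (adjusted p = 0.675, limma). Its values were 2.90, 4.25 and 4.19 in controls and 4.62, 4.57 and 4.12 with DFX. CYP1A1, the marker gene of AHR, was not well above background on any array, and the brightest probe of CYP1B1, another AHR target, differed by 0.04 (95% interval -0.72 to 0.80), with 6.82, 5.61 and 6.32 in controls and 6.27, 6.11 and 6.48 with DFX. The control tumors spanned the DFX tumors. CYP2D6, which oxidizes codeine, had 6.86, 7.01 and 7.04 in controls and 6.65, 7.05 and 6.82 with DFX by its brightest probe, which shares 20 bases with 2 other probes of the array (difference -0.13, 95% interval -0.47 to 0.20).

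**Figure D2:**
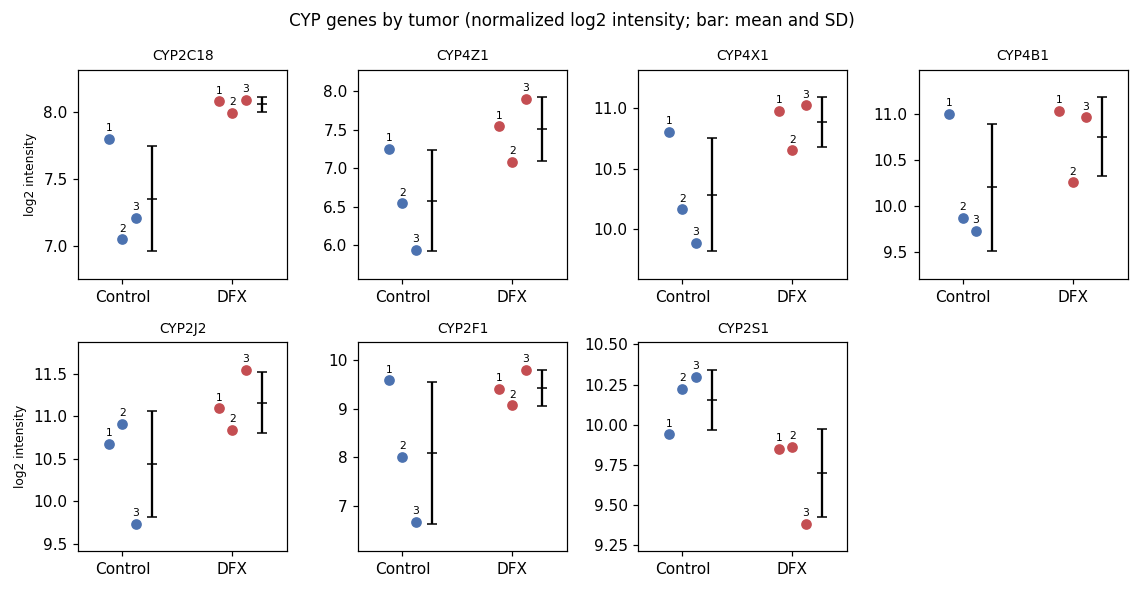
Normalized log2 intensity (vertical axes, separate scales that do not start at 0) of 7 CYP genes in the control and DFX tumors; each point is 1 tumor with its replicate number, and the bars give the mean and SD of the 3 tumors. Control replicate 1 lies at or near the DFX values for CYP4X1, CYP4B1 and CYP2F1, and the groups do not overlap for CYP2C18 and CYP2S1.

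Of the 12 fatty acid and eicosanoid genes 11 were tested and none was called, with a median difference of 0.12. CYP4Z1, which also hydroxylates fatty acids, is counted with the genes of less settled substrates. CYP2J2, which epoxidizes arachidonic acid, had 10.67, 10.91 and 9.73 in controls and 11.09, 10.84 and 11.55 in the DFX tumors. The groups overlapped, and the difference was 0.72 ± 0.35 (SE, adjusted p = 0.634, limma). It was 0.37 without control replicate 3, and 0.96 and past the unadjusted threshold without control replicate 2. CYP4B1 had 10.9965, 9.87 and 9.73 in controls and 11.03, 10.26 and 10.96 in the DFX tumors (difference 0.55, adjusted p = 0.724, limma). That difference was 0.95 and passed without control replicate 1, and was 0.32 without control replicate 3. CYP4A11, a fatty acid omega-hydroxylase, had 5.41, 5.16 and 4.81 in controls and 5.35, 4.40 and 5.07 with DFX and overlapped between the groups (difference -0.19).

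CYP4F22, which makes omega-hydroxylated very long fatty acids for skin ceramides, had 1.88, 5.28 and 5.35 in controls and 5.85, 7.36 and 5.38 in the DFX tumors. It was well above background in 2 of 3 control and all 3 DFX tumors. The groups did not overlap, DFX replicate 3 lay close to the higher control tumors, and control replicate 1 was far below the rest. The difference was 2.03 ± 1.06 (SE, adjusted p = 0.648, limma), 0.88 without control replicate 1 and 0.75 with normexp background correction. No overlap was found for 4 of the 40 tested CYP genes, CYP2C18, CYP2R1, CYP2S1 and CYP4F22, or 10% of them, beside 19.4% of all tested genes.

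CYP4F2, which omega-hydroxylates arachidonic acid and vitamin K, was measured by probes that differed from each other. The probe at chr19:15988846-15988905 (hg19, minus strand) was well above background in no control tumor and in all 3 DFX tumors. It gave 2.32, 3.87 and 2.09 in controls and 5.07, 5.45 and 4.48 in the DFX tumors, where the group mean was at least 2.05-fold higher in the main processing. It did not pass the background filter and so was outside the main test. The other probe, whose 60 bases are spread over chr19:16000494-16001171 across an intron, was well above background on all arrays and differed by -0.07 ± 0.20 (SE, adjusted p = 0.941, limma). The last 30 bases of each are shown because these probes read different stretches of the gene; no letter is marked.
CYP4F2 downstream probe: gtgagcatctttccatgacattaaatcatc
CYP4F2 intron-spanning probe: tttgacagccattgtcaggagaaacccagt

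**Figure D3:**
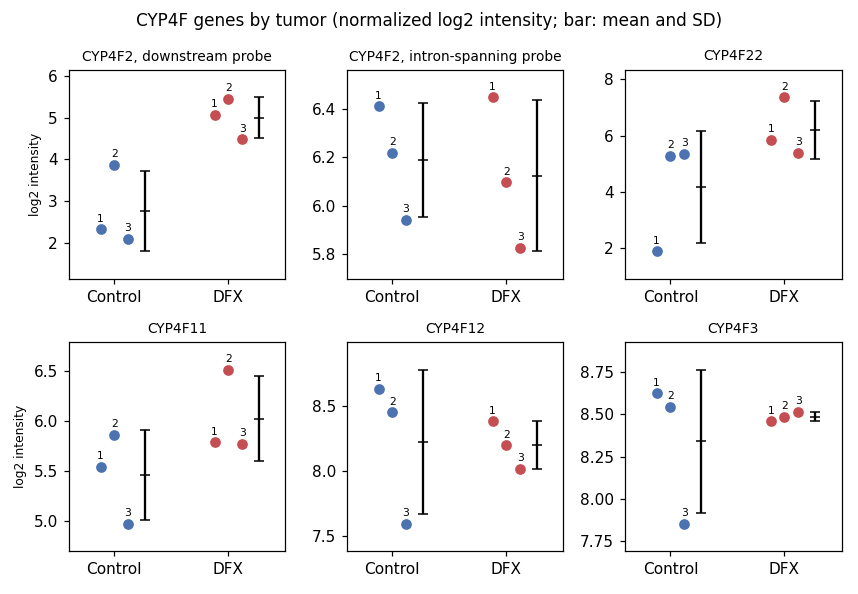
Normalized log2 intensity (vertical axes, separate scales that do not start at 0) of probes of 5 CYP4F genes in the control and DFX tumors; each point is 1 tumor with its replicate number, and the bars give the mean and SD of the 3 tumors. The downstream CYP4F2 probe separates the groups, at 2.09 to 3.87 and 4.48 to 5.45, whereas the intron-spanning probe does not.

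Of the sterol and bile acid genes 3 of 7 were tested and none was called. CYP51A1, the lanosterol demethylase of cholesterol synthesis, had 11.42, 12.06 and 12.09 in controls and 11.98, 11.96 and 11.86 in the DFX tumors. The DFX tumors lay within the control range (difference 0.08, 95% interval -0.42 to 0.57). Of the steroid hormone genes 3 of 6 were tested and none was called. CYP11A1, which cleaves the cholesterol side chain, had 4.91, 4.60 and 4.75 in controls and 3.22, 4.41 and 4.65 in the DFX tumors, and was well above background in 3 control tumors and 1 DFX tumor (difference -0.66, adjusted p = 0.671, limma). That difference was -0.22 without DFX replicate 1 and -0.12 with normexp background correction. Of the 5 steroidogenic markers HSD3B1, HSD3B2, MC2R and STAR were never well above background, and NR5A1 was so in DFX replicate 1 alone.

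All 3 vitamin D genes were well above background on all arrays and none was called. CYP2R1, which carries out the first hydroxylation of vitamin D, had 5.82, 5.83 and 5.94 in controls and 5.70, 5.75 and 5.45 in the DFX tumors by one probe (difference -0.23, adjusted p = 0.653, limma), and -0.13 by the other. CYP27B1, which activates that product, had 7.92, 8.13 and 8.68 in controls and 8.13, 8.20 and 7.91 with DFX and differed by -0.17 (95% interval -0.70 to 0.36). CYP24A1, which degrades it and is the marker gene of the vitamin D receptor, differed by 0.02 and -0.27 by its probes, the brighter of which had 6.73, 6.85 and 6.81 in controls and 6.38, 7.18 and 6.89 with DFX. The groups of both genes overlapped. Of the 4 retinoid genes 3 were tested and none was called. CYP26A1, the retinoic acid hydroxylase, had 8.23, 7.36 and 6.84 in controls and 8.25, 5.87 and 8.50 in the DFX tumors, so the DFX tumors were more spread than the groups were apart (difference 0.06, 95% interval -1.81 to 1.93). CYP27C1, a retinol desaturase, had 7.61, 8.34 and 8.33 in controls and 7.54, 7.64 and 7.82 in the DFX tumors by its dimmer probe (difference -0.42, adjusted p = 0.654, limma). That difference was -0.67 and passed without control replicate 1, and the brighter probe differed by -0.12 (95% interval -0.75 to 0.51).

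The 5 genes with less settled substrates held 2 of the 3 calls. CYP4Z1, a fatty acid hydroxylase known from the mammary gland, had 7.26, 6.55 and 5.94 in controls and 7.55, 7.08 and 7.90 in the DFX tumors. The groups overlapped, since control replicate 1 lay above DFX replicate 2. The difference was 0.93 ± 0.38 (SE, adjusted p = 0.591, limma), and its other probes gave 0.82 and 0.70, neither past the threshold. CYP4X1, its neighbor on chromosome 1, had 10.81, 10.16 and 9.89 in controls and 10.98, 10.65 and 11.03 in the DFX tumors (difference 0.60, adjusted p = 0.608, limma), 0.86 and past the unadjusted threshold without control replicate 1. In this cluster of 5 genes (chr1:47231505-47606576, hg19) 3 of the 4 tested genes were on the higher side, with a median of 0.57. The medians of the other clusters of at least 3 CYP genes ranged from -0.31 on chromosome 15 to 0.70 on chromosome 10. These ends rest on 2 and 3 tested genes, and the median on chromosome 10 is the CYP2C18 value.

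CYP2S1, an extrahepatic member induced through AHR in other cells, had 9.94, 10.22 and 10.30 in controls and 9.85, 9.86 and 9.38 in the DFX tumors. All DFX tumors lay below all control tumors. The difference was -0.46 ± 0.18 (SE, adjusted p = 0.585, limma). The brighter CYP2S1 probe, averaged over 10 spots, had 11.70, 11.85 and 11.9975 against 11.58, 11.65 and 11.34, also without overlap, with a difference of -0.32 that did not pass (adjusted p = 0.601, limma). The calls of CYP2S1 and CYP4Z1 were lost under 6 and 7 of the 18 alternatives. Both were lost when control replicate 2 or 3, or DFX replicate 1 or 3, was left out. The difference of CYP2S1 was then as small as -0.30, without DFX replicate 3, and that of CYP4Z1 as small as 0.61, without control replicate 3. With normexp background correction CYP4Z1 differed by 0.57.

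CYP2W1, an enzyme known from fetal gut and colorectal tumors, had 17.72, 17.77 and 17.69 in controls and 17.75, 17.65 and 17.78 in the DFX tumors, with a 95% interval of the difference from -0.24 to 0.24. Its probe shares a run of 20 bases, in either orientation, with 5 other probes of the array. A run of 12 bases of its probe was held in the same orientation by 8 other probes of the array, in genes such as FUT6, GCLM and ZNF799, which had mean intensities of 9.76 to 17.76, where the median of all probes was 4.81. The part of the run in the CYP2W1 signal was not tested, so this value is not given as a level of the CYP2W1 transcript.

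Of 34 partner genes 29 were tested and 5 were called, all higher in the DFX tumors; these were 17.2% beside the 10.8% of all tested genes. Among the 9 redox partners, CYB5A, the cytochrome b5 that passes electrons to some P450 enzymes, had 11.87, 11.51 and 11.40 in controls and 12.01, 12.04 and 11.89 with DFX, a difference of 0.39 without overlap (adjusted p = 0.581, limma). Its other probe differed by 0.32, with overlapping groups, and did not pass, and the call was lost under 8 of 18 alternatives. POR differed by -0.09 and -0.03 by its probes, the brighter of which had 14.89, 15.05 and 14.75 in controls and 14.46, 15.00 and 14.94 with DFX. AHR differed by 0.05 and 0.29, neither past the threshold, and its brighter probe had 13.10, 12.90 and 12.79 in controls and 12.92, 12.90 and 13.14 with DFX. The groups overlapped for both genes.

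NR1I2 was well above background in no control tumor and in all 3 DFX tumors. Its intensity was 2.23, 3.79 and 2.06 in controls and 5.10, 5.25 and 4.71 in the DFX tumors (adjusted p = 0.513, limma). The fold of the group means was at least 2.08 in the main processing. The groups did not overlap. NR0B2, a corepressor of nuclear receptors, was well above background in 1 control tumor and in all 3 DFX tumors, at 3.67, 4.20 and 2.17 against 5.97, 6.68 and 5.12 (difference 2.58 ± 0.62, SE, adjusted p = 0.514, limma). Both passed under all 17 alternatives that gave a value. Of these, 1 kept probes well above background on every array of 1 group, where both genes entered through the DFX tumors alone. The Kruskal-Wallis H test, another of them, passes any probe without overlap. With normexp background correction, however, the differences were 0.45 for NR1I2 and 0.78 for NR0B2, and without background correction 0.39 and 0.67. RARA, a retinoic acid receptor, and SREBF1, a regulator of lipid synthesis, had differences of 0.30 and 0.71 (adjusted p = 0.580 for both, limma), but their other probes gave -0.13 and 0.07, and the calls were lost under 7 and 8 of 18 alternatives. The called RARA probe had 9.97, 10.20 and 9.99 in controls and 10.30, 10.44 and 10.32 with DFX, without overlap. The called SREBF1 probe had 13.36, 14.32 and 13.53 in controls and 14.21, 14.54 and 14.58 with DFX, with control replicate 2 inside the DFX range. With median scaling NR1I2 and NR0B2 were the partner genes called.

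**Figure D4:**
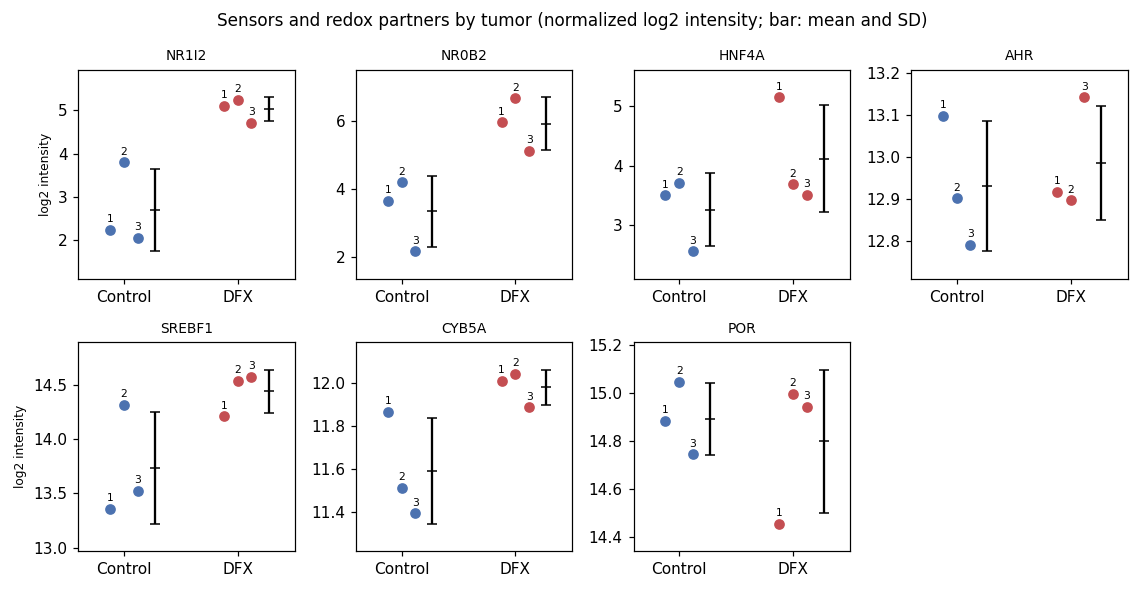
Normalized log2 intensity (vertical axes, separate scales that do not start at 0) of 5 regulators (NR1I2, NR0B2, HNF4A, AHR and SREBF1) and the redox partners CYB5A and POR in the control and DFX tumors; each point is 1 tumor with its replicate number, and the bars give the mean and SD of the 3 tumors. NR1I2 and NR0B2 lie higher in every DFX tumor than in any control tumor, and POR overlaps.

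Markers of other epithelia were examined in the same tumors. Of 9 enterocyte markers 6 were tested and 5 were called higher (CDX2, FABP1, KRT20, SI and VIL1), beside 4.45% of all tested genes. Their median difference over the tested markers was 1.90, and FABP2 was not well above background on any array. SI was well above background on no control array, and the tested FABP1 probe on 1. The sizes of these differences therefore rest on control values near background. The summed linear intensity of the enterocyte markers was 811 to 1825 in controls and 2388 to 3382 in the DFX tumors. Of 8 hepatocyte markers 4 were tested and SERPINA1 was called higher, beside the same 4.45% of all tested genes. ALB, APOA2, FGB and TTR were never well above background. The part of the enterocyte markers in the values of CYP2C18, CYP4F2, NR1I2 and NR0B2 was not tested.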

How the data were processed

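RNA of 3 control and 3 DFX tumors was measured on one-color arrays. The authors deposited linear intensity values for each spot, with a p-value of each spot against its background, and a value table of normalized intensity. The file headers name Feature Extraction 10.7.1.1, the submitters' notes 9.5.1.1. The log2 transformation, quantile normalization and detection filter follow the study's methods. The processed signal as input (58717 non-control spots), the dropping of outlier values (1398) and the averaging of repeat spots were chosen here. Of 50599 probes, 31807 had a background p under 0.05 on all arrays and were tested with limma 3.58.1 (R 4.3.3; lmFit, eBayes, two-sided), adjusting by Benjamini-Hochberg across them. The fit was checked on simulated data. For a probe never well above background in a group, the fold is a bound set by the lowest signal that was. It bounds the ratio of group means in the main processing and does not cover the spread between tumors. Other background corrections gave smaller differences for NR1I2. Gene names and hg19 positions are those of the array. The members and gene lists were chosen with earlier results of these data known. Values are given for called genes, the largest differences, the brightest members, and marker genes of sensors. CYP4B1, CYP4X1 and CYP4F2 were named after their values were seen, and the run in the CYP2W1 probe was looked for after its intensity was seen. The labels do not say that each tumor came from its own mouse, so p-values measure the spread between these tumors, and the number of arrays limits the precision. Some genes, which stay in the counts, and some probe sequences are not reported here.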

Additional observations from a re-analysis of the deposited data

Results flagged for a closer look

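The downstream CYP4F2 probe was outside the main test and had signal in the DFX tumors above the level of the control tumors. The fold of the group means was at least 2.05 in the main processing. No control tumor was well above background for this probe, so only this bound is given. The probe was not fitted with other background corrections, under which the NR1I2 difference was smaller.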

How the results depend on the processing

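The 3 calls among CYP genes became 6 with normexp background correction (15% of tested CYP genes, beside 11% of all genes) and 5 with probes well above background on every array of 1 group (14.3% beside 12.4%), where CYP4F2 entered through the DFX tumors alone, and ranged from 1 to 9 when each tumor was left out in turn. CYP2C18 was called under every alternative run. The 5 partner calls became 2 with median scaling, 3 where all arrays had to be well above background and 3 with slide column as a random block, and ranged from 2 to 5 with a tumor left out. The 2675 called probes became 4927 with the Kruskal-Wallis H test, and ranged from 1889 to 2717 with a tumor left out. The median difference of the CYP genes was -0.00011 with median scaling and 0.099 with 75th percentile scaling, and ranged from 0.0055 to 0.19 with a tumor left out. Lower probes were 58.8% of calls, 42.6% after scaling to the 75th percentile and 71.8% after median scaling, which moved the median of all probes to -0.10. The tumors share only a replicate number: same-numbered tumors had correlations of 0.027, 0.027 and 0.016 of their deviations from the group means, and the replicate block gave 3 CYP genes, CYP2C18 among them, 4 partner genes, 2419 probes and a CYP median of 0.041. The 17 genes followed kept their sign, by the probe followed, under all alternatives that gave a value. They were picked for calls or large differences in these same data, so a stable sign follows in part from that choice. The other RARA probe had the opposite sign. Of 13 other named genes, none of them called, 11 changed sign under at least 1 alternative, and CYP2D6 and CYP3A4 did not. The other tested CYP2D6 probe, however, differed by 0.05, the opposite sign to the probe followed. Signals near background limit the values of CYP4F22, CYP11A1, CYP3A4, NR1I2, NR0B2, PTGIS, SI, FABP1 and the downstream CYP4F2 probe.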

Other observations

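PTGIS, the prostacyclin synthase, is a P450 enzyme whose symbol lies outside the CYP naming. It did not pass the background filter. Its intensity was 1.95, 3.28 and 3.02 in the control tumors, none well above background. In the DFX tumors it was 4.39, 5.60 and 5.34, all well above background. The fold of the group means was at least 2.21 in the main processing. PTGIS was not fitted with other background corrections, so this bound holds for the main processing alone. HNF4A was well above background in 1 DFX tumor and in no control tumor. Control replicate 3 was the lowest of the 6 arrays for 15 of the 40 tested CYP genes, and for 21.3% of all tested genes. Of 12 CYP genes with several tested probes, 8 had differences of the same sign by all of them.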
